A study of Ictalurus furcatus with 16 samples.

Results

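The Wnt genes of the testis were followed across age in Ictalurus furcatus, the blue catfish, by RNA sequencing of testis tissue from males of ages 2, 4, 7 and 9 (the labels give no unit of age). Each of the 4 ages had 4 libraries, each labelled as a separate biological replicate. The labels give no strain, treatment or maturity stage, and the series names age 2 as the control, so that each older age is set against it first, and the older ages are then compared with each other. Genes were taken by the prefix of their symbol: the ligands (wnt), the receptors and co-receptors (fzd, lrp5, lrp6, ror1, ror2), the R-spondin module (rspo, lgr, znrf3, rnf43), the secreted antagonists (sfrp, dkk, notum), the cytoplasmic relay (dvl, axin, ctnnb1) and the nuclear factors (lef1, tcf7). Of 26356 genes counted, 61 had such a symbol, and 39 of these had 10 or more counts in 4 or more libraries. These 39 genes, 16 ligands, 11 receptors, 2 genes of the R-spondin module, 4 secreted antagonists, 5 cytoplasmic genes and 1 nuclear factor, are described here.

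Wnt proteins are secreted, lipid-bearing signals that act between neighbouring cells. A Wnt ligand binds a Frizzled receptor together with the co-receptor Lrp5 or Lrp6, and Dishevelled then halts the destruction complex of Axin, Apc and Gsk3, so that beta-catenin accumulates and acts with Tcf and Lef factors on target genes. In branches that do without beta-catenin, Ror receptors and the planar polarity proteins turn Wnt signals into cell shape and movement. R-spondins, bound by Lgr receptors, keep the ubiquitin ligases Znrf3 and Rnf43 from clearing Frizzled off the cell surface. Sfrp proteins hold Wnt ligands outside the cell, most Dkk proteins block the co-receptor, and Notum removes the lipid that ligands need. In the mouse, Wnt4 and Rspo1 favour ovarian over testicular development, and Wnt6 from Sertoli cells acts on undifferentiated spermatogonia.

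Libraries held between 5136717 and 8081160 fragments assigned to a transcript. Levels are given as CPM (counts scaled to a common total of assigned fragments), with library sizes scaled by the trimmed mean of M values (TMM). Gene lengths were not used here, so that levels are compared between libraries and not between genes. Age 2 replicate 1 stood apart from the other age 2 testes. It held the most assigned fragments of all libraries (8081160, 34.8% of its fragments). Its share of fragments outside annotated features was the lowest (32.5%), against 40.4% to 45.0% in age 2 replicates 2 to 4. Whether this library differs in its preparation or in its tissue cannot be told apart. The summed level of 8 sperm tail genes was 900 CPM in this library, between 35.1 and 68.5 CPM in age 2 replicates 2 to 4, and between 313 and 1396 CPM in the 12 older libraries. Nearly all of this sum was cfap52 (887.1 CPM, between 29.8 and 63.7 CPM, and between 309.2 and 1374 CPM). tekt1 overlapped between age 2 replicates 2 to 4 and the older libraries, and ropn1l was at 0 throughout. Of the 4 sperm tail genes tested 0, 1 and 0 were higher at ages 4, 7 and 9, and 0 lower. The summed level of 9 Sertoli cell genes, the somatic cells that nurse the germ cells, was 325 CPM in age 2 replicate 1, between 2587 and 7504 CPM in replicates 2 to 4 and between 459 and 1169 CPM in the older libraries, though dmrt1, wt1a and wt1b of this list were listed at 0 throughout. The growth factor gene gsdf was the smaller part of this sum in age 2 replicate 1 (101.5 CPM). The same held for the older libraries (95.9 to 510.6 CPM). In age 2 replicates 2 to 4 gsdf was most of the sum (2479, 1934 and 6708 CPM). amh, fshr and clu overlapped between these replicates and the older libraries. clu held between 25.3 and 90.0 CPM in these replicates and between 29.4 and 247.8 CPM in the older libraries. Of the 6 Sertoli cell genes tested 2, 2 and 1 were lower at ages 4, 7 and 9 and 0 higher. For 9 genes of early germ cells the sums were 177 CPM, between 640 and 934 CPM, and between 130 and 232 CPM. At age 2 most of this sum was tdrd1 (120.4 CPM, between 387.9 and 703.4 CPM, and between 70.7 and 162.7 CPM). gfra1b (6.89 CPM, between 8.16 and 8.53 CPM, and between 10.9 and 77.6 CPM) and piwil1 (42.5 CPM, between 15.4 and 22.9 CPM, and between 29.7 and 49.4 CPM) ran the other way. Of the 6 early germ cell genes tested 4 were lower at each age, and 0, 1 and 2 higher. The sums were 943.3 CPM, between 198.5 and 299.1 CPM, and between 404.9 and 755.1 CPM for 7 meiotic genes, with 1 of 6 tested higher at each age. They were 27.6 CPM, between 65.5 and 84.6 CPM, and between 31.5 and 49.9 CPM for 10 genes of neurons and nerve sheath, with 1, 3 and 3 of 8 lower and 0, 1 and 1 higher. Of 6 tested macrophage and myeloid genes 4, 3 and 5 were higher, and of 4 Leydig cell genes 1, 2 and 2, with 0 lower in both lists. Sums of endothelial, epithelial and oocyte genes overlapped between age 2 replicates 2 to 4 and the older libraries, and erythrocyte genes summed to at most 3.75 CPM. Summed levels were 1870 CPM, between 1682 and 4940 CPM, and between 2399 and 10960 CPM for 9 smooth muscle and peritubular genes (tagln and myl9b at 0 throughout). Of the 6 tested 0, 1 and 2 were higher at ages 4, 7 and 9, and 1, 0 and 0 lower. Of all tested genes 6.66%, 11.5% and 6.82% were higher at these ages and 12%, 15.9% and 11.5% lower. Without age 2 replicate 1, 3 of 4 sperm tail and 3 of 6 meiotic genes were higher at each age and 0 lower. Of 6 Sertoli cell genes 3, 3 and 2 were lower and 0 higher. Of all genes 23.3%, 24.2% and 21.7% were higher in that fit and 22.3%, 23.6% and 20.6% lower. The library left out is the one these lists set apart, so that a wider difference was built in. In bulk testis tissue, fewer cells of a type and less RNA per cell cannot be told apart. The part that these cell type markers play in the differences below was not tested. For the Wnt genes called against age 2, fold changes are therefore given with all libraries and, where it changed a call, also without age 2 replicate 1.

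The other 22 genes with a matching symbol fell short of the count minimum, and 5 of them, the ligand wnt5a, the receptor fzd7b, the R-spondin rspo1, the antagonist dkk3b and the nuclear factor tcf7l2, had 0 counts in every library. All 5 have 2 or more annotated transcripts (tcf7l2 has 12), whereas 32 of the 39 genes that passed have 1. The deposited counts are per transcript, and over all genes counted 24.1% of those with several transcripts had 0 counts in every library, against 4.32% of those with 1 transcript. A count of 0 for these genes is therefore not read as absence, and lef1, tcf7 and ror2, with several transcripts and at most 1 count in any library, are in the same position. Nor is a count of 0 in the marker lists above read as absence. Just outside the minimum lay wnt3a, with 2 counts in age 2 replicate 1, 31, 28 and 28 in replicates 2 to 4, and at most 7 in any older library. Just inside lay wnt2bb, with 5, 24, 18 and 17 counts at age 2 and at most 11 in any older library. Including wnt2bb, 5 genes (wnt11, wnt6b, wnt7aa and wnt7bb are the others) reached 10 counts in fewer than 4 older libraries. They entered through age 2, where they are high, so that a difference was built into their selection.

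**Figure D1:**
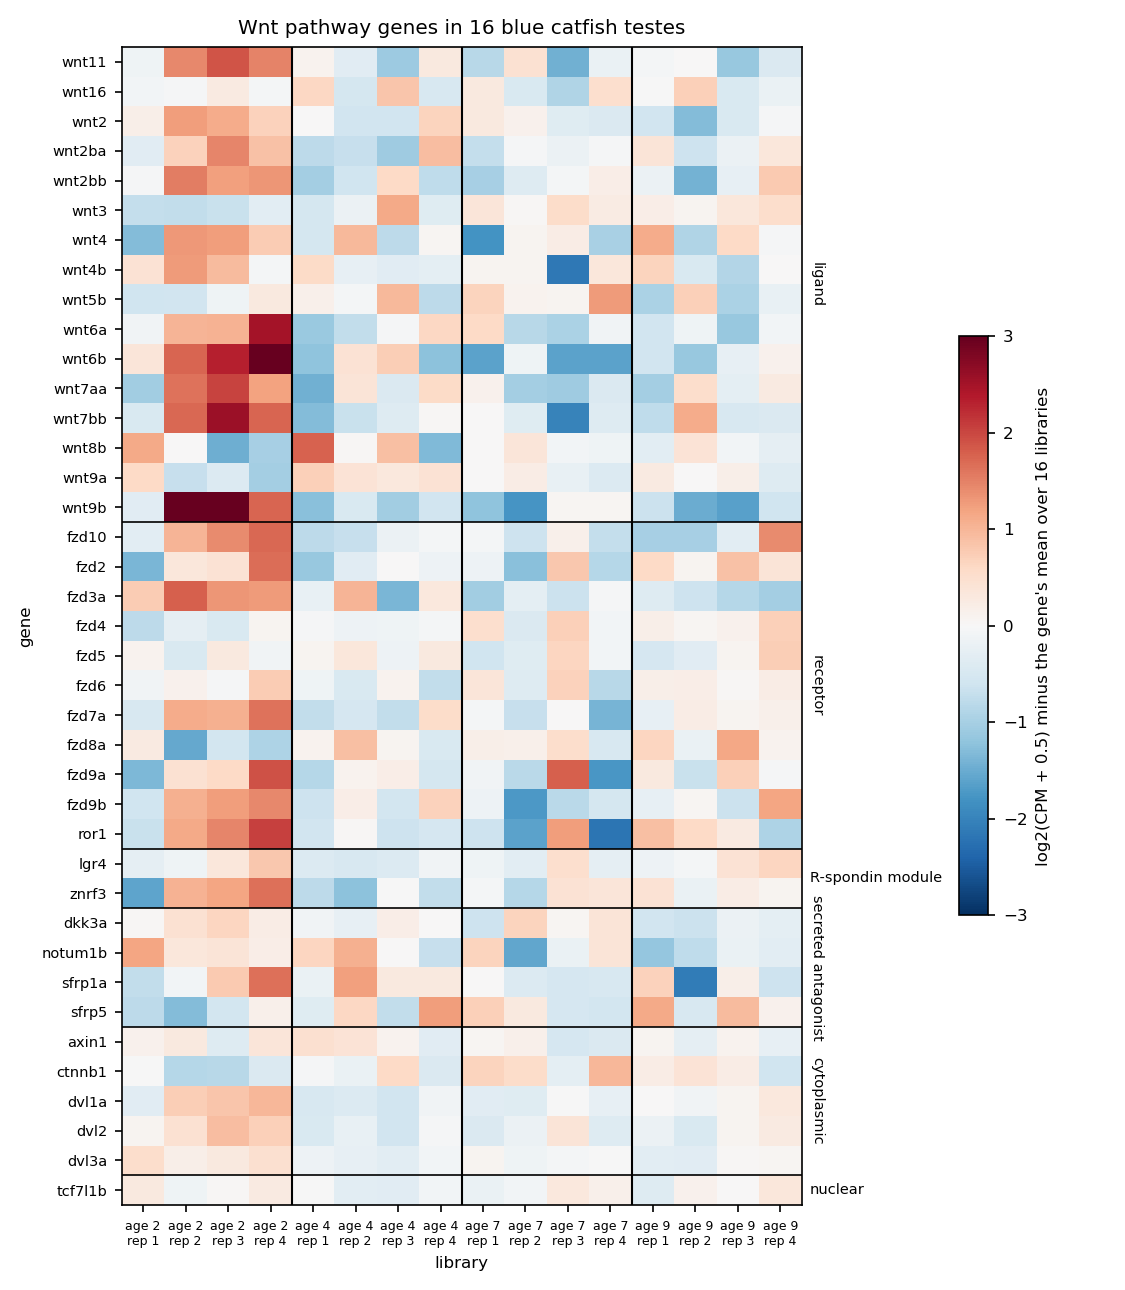
Levels of the 39 Wnt pathway genes in the 16 libraries, as log2(CPM + 0.5) minus the mean of the gene over all libraries (red above, blue below), with genes in rows by role and libraries in columns by age. Age 2 replicates 2 to 4 hold most of the dark red cells, for example wnt9b at 60.9, 111.8 and 11.03 CPM, whereas age 2 replicate 1 (wnt9b at 2.24 CPM) lies within the range of the older libraries in 32 of the 39 genes. Over all tested genes, 76.6% had age 2 replicate 1 within that range.

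Of these genes 38 had enough counts to be tested (wnt7aa did not), in a fit over all genes (edgeR's quasi-likelihood test, Benjamini-Hochberg adjusted p under 0.05). At age 4, 0 Wnt genes were higher and 8 lower than at age 2. At age 7, 1 was higher and 10 lower, and at age 9, 0 were higher and 7 lower. The share of Wnt genes called was 21.05% at age 4, 28.95% at age 7 and 18.4% at age 9, against 18.6%, 27.3% and 18.4% of all tested genes, so that Wnt genes were called about as often as genes in general. The share called lower was 21.05%, 26.3% and 18.4%, beside 12%, 15.9% and 11.5% of all genes. Higher calls made up 6.66%, 11.5% and 6.82% of all genes. Without the genes that entered through age 2, 6, 7 and 5 of 34 were lower and 0, 1 and 0 higher. The median log2 fold changes of the 38 genes at ages 4, 7 and 9 were -0.77, -0.75 and -0.66, beside -0.05, -0.08 and -0.03 over all tested genes. The comparisons share their age 2 libraries, so that they are not independent of each other. The 0 counts of higher Wnt genes at ages 4 and 9 stood beside 18 and 17 genes with an unadjusted p under 0.05 in either direction, and DESeq2 called 0 and 2 Wnt genes higher there.

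These counts rested on a few libraries. Without age 2 replicate 1, which made 39 genes testable, 21 Wnt genes were called at age 4 (3 higher, 18 lower), 22 at age 7 (4 higher, 18 lower) and 17 at age 9 (3 higher, 14 lower). In that fit 53.85%, 56.4% and 43.6% of Wnt genes and 45.7%, 47.8% and 42.3% of all genes were called. The Wnt genes called lower were then 46.15%, 46.15% and 35.9%, beside 22.3%, 23.6% and 20.6% of all genes. Without the 5 genes that entered through age 2, 13, 13 and 10 of 34 were lower in that fit (38.24%, 38.24% and 29.41%) and 3, 4 and 3 higher. In every Wnt gene that gained a call in that fit apart from wnt3, the library left out held an extreme age 2 level. It was the lowest of age 2 where the call was lower and the highest where it was higher, so that a wider difference was built in. Leaving out age 2 replicate 2, 3 or 4 instead left 2, 1 and 1 calls at age 4, 3, 3 and 4 at age 7, and 3, 2 and 3 at age 9. The age 4 count also fell to 1, 3 and 0 without age 4 replicates 1, 2 and 3, the age 7 count to 7, 7 and 3 without age 7 replicates 1, 2 and 4, and the age 9 count to 2 without each of age 9 replicates 1, 2 and 3. Of the 26 calls, 26 remained without age 2 replicate 1, and 5 remained whichever of the 16 libraries was left out, those of wnt9b and fzd3a at ages 7 and 9 and of wnt6b at age 7. wnt6b had entered through age 2, so that its difference was built in, and it held 5 counts in all at age 7.

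**Figure D2:**
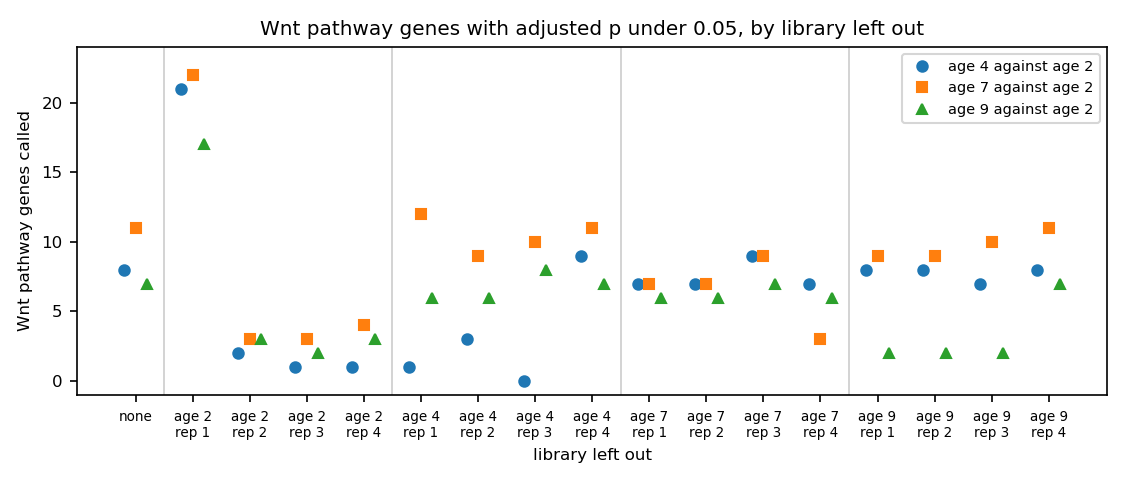
Number of Wnt pathway genes with an adjusted p under 0.05 at age 4 (circles), age 7 (squares) and age 9 (triangles) against age 2, by the library left out of the fit (horizontal axis; none at the left). The counts are 8, 11 and 7 with all libraries, 21, 22 and 17 without age 2 replicate 1, and between 1 and 4 without any other age 2 library.

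Set against age 2 one age at a time, 0, 1 and 1 Wnt genes at ages 4, 7 and 9 were higher without overlap and 3, 3 and 7 lower. Over all genes the shares were 4.94%, 6.73% and 7.12% higher and 4.47%, 8.37% and 7.93% lower. Among all 39 genes, age 2 replicates 2 to 4 lay above all 12 older libraries in 14 and below them in 1 (fzd8a). Over all tested genes these shares were 17.3% above and 16.2% below. Of the 14, 5 (wnt2bb, wnt6b, wnt7aa, wnt7bb and wnt11) had entered through age 2, so that their place was built in, and the other 34 genes held 9 above. The 14 were the ligands wnt2, wnt2bb, wnt6a, wnt6b, wnt7aa, wnt7bb, wnt9b and wnt11, the receptors fzd3a and fzd7a, the ligase znrf3 and the 3 Dishevelled genes. In 12 of the 14 age 2 replicate 1 lay within the range of the older libraries. Over all tested genes replicates 2 to 4 lay above in 2769, and in 2144 of these replicate 1 lay within that range. The exceptions were znrf3, where it lay below that range, and dvl3a, where it lay above. Only dvl3a had all 4 age 2 libraries above all 12 older ones, a pattern found in 1.73% of all tested genes, and none of the 39 had all 4 below (1.46% of all tested genes).

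**Figure D3:**
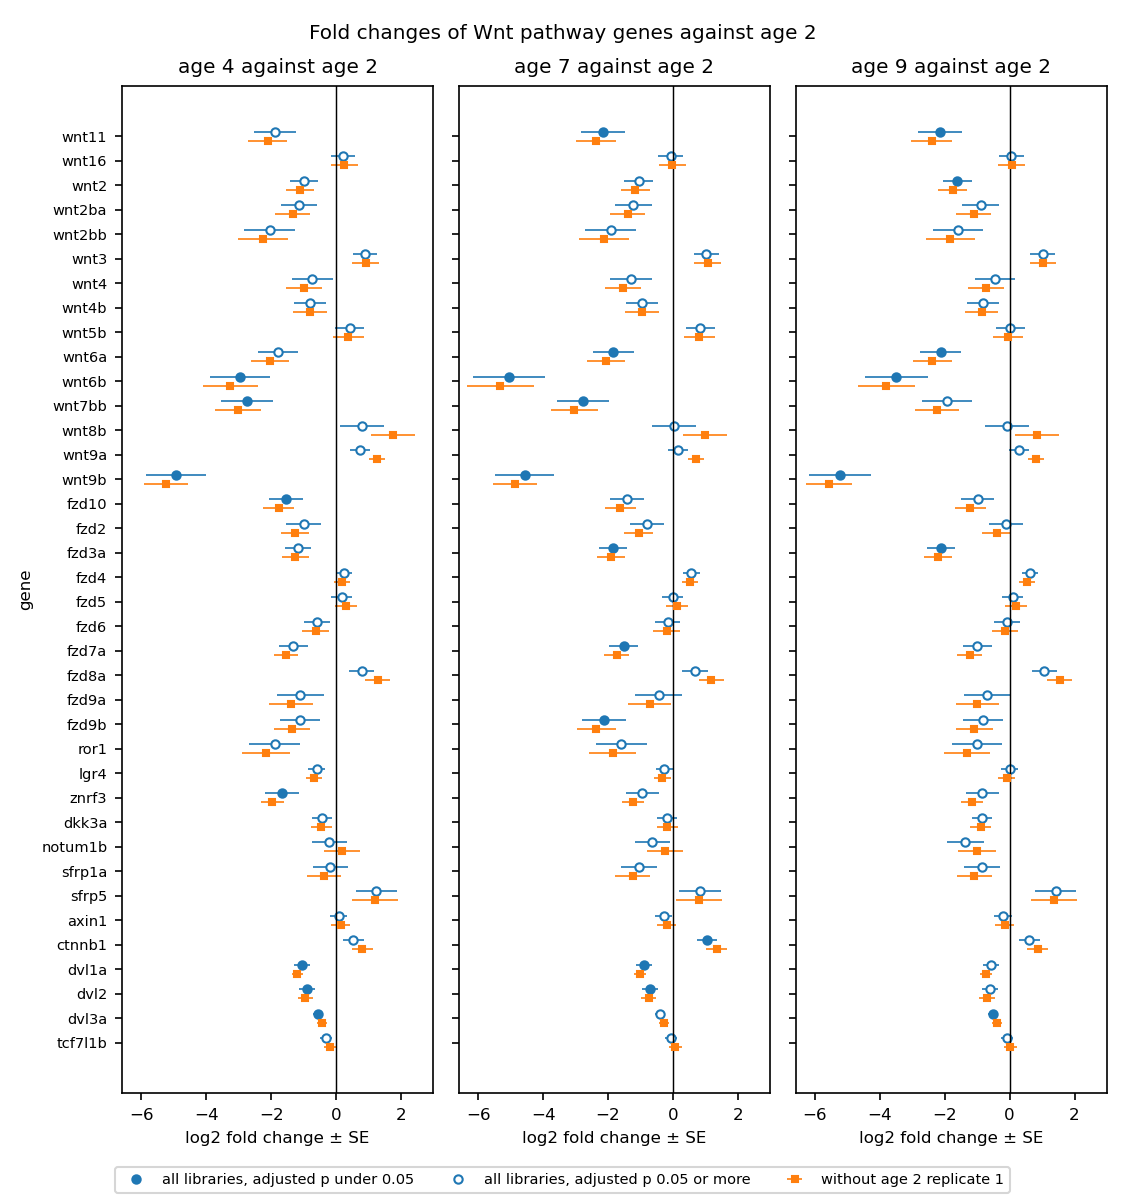
Log2 fold change with its standard error for the 38 tested Wnt pathway genes at ages 4, 7 and 9 against age 2, with all libraries (circles, filled where the adjusted p is under 0.05) and without age 2 replicate 1 (squares). Most points lie left of 0, and the farthest are wnt9b (-4.93, -4.57 and -5.24) and wnt6b (-2.97, -5.06 and -3.50).

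The ligand wnt9b, which in the mouse is needed for the tubules of the kidney and for the genital ducts, was lower at all 3 older ages, with the largest fold change of the tested Wnt genes at ages 4 and 9. wnt9b stood at 2.24, 60.9, 111.8 and 11.03 CPM in age 2 replicates 1 to 4. Its levels were 0.94, 2.04, 1.19 and 1.81 CPM at age 4, 1.001, 0.52, 3.08 and 3.11 CPM at age 7 and 1.71, 0.73, 0.61 and 1.80 CPM at age 9. It was high in age 2 replicates 2 to 4 and low in the other 13 libraries. The ages overlapped at age 7, where replicates 3 and 4 lay above age 2 replicate 1, and did not overlap at ages 4 and 9, which 4.47% and 7.93% of all genes showed in this direction. The log2 fold change (± SE) was -4.93 ± 0.93 at age 4 (adjusted p = 0.0126), -4.57 ± 0.91 at age 7 (adjusted p = 0.00626) and -5.24 ± 0.95 at age 9 (adjusted p = 0.00433). The call at age 4 ended without age 4 replicate 3 (adjusted p = 0.0562).

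Of the wnt6 copies, whose mouse counterpart acts on spermatogonia, wnt6b was lower at all 3 older ages and wnt6a at ages 7 and 9. wnt6b had entered through age 2, so that a difference in this direction was built into its selection. wnt6b held 1.44, 4.59, 7.14 and 17.6 CPM in age 2 replicates 1 to 4. The older libraries held 0.16, 1.53, 2.03 and 0.14 CPM at age 4, 0, 0.87, 0 and 0 CPM at age 7 and 0.51, 0.18, 0.77 and 1.14 CPM at age 9. Age 2 replicate 4 was the highest, and 3 of the 4 age 7 libraries were at 0. Against age 2 the log2 fold change of wnt6b was -2.97 ± 0.93 at age 4 (adjusted p = 0.038), -5.06 ± 1.11 at age 7 (adjusted p = 0.00805) and -3.50 ± 0.97 at age 9 (adjusted p = 0.0232). At age 7 the group held 5 counts in all, so that the size of this change is poorly determined. The ages overlapped at age 4 and not at ages 7 and 9 (no overlap with the older age lower in 8.37% and 7.93% of all genes). The call at age 4 ended without any 1 library of ages 2 and 4 other than age 2 replicate 1 (adjusted p = 0.0607 to 0.153), and that at age 9 without age 2 replicate 3 or 4 or age 9 replicate 1, 2 or 3 (0.0529 to 0.0861). wnt6a held 2.08, 5.14, 5.25 and 15.2 CPM in age 2 replicates 1 to 4. Later ages had 0.79, 1.15, 2.20 and 3.76 CPM at age 4, 3.67, 1.05, 0.93 and 2.07 CPM at age 7 and 1.37, 2.02, 0.77 and 2.12 CPM at age 9. Age 2 replicate 4 again stood highest, and age 2 replicate 1 lay among the older libraries, so that all ages overlapped. The log2 fold change was -1.79 ± 0.62 at age 4 (adjusted p = 0.0542), -1.83 ± 0.63 at age 7 (adjusted p = 0.0414) and -2.13 ± 0.64 at age 9 (adjusted p = 0.0323), the first short of the threshold, and without age 2 replicate 1 it was -2.04 at age 4 (adjusted p = 0.00955). The age 7 call of wnt6a ended without any of age 2 replicates 2 to 4, age 4 replicates 2 and 3, age 7 replicates 2 to 4 and age 9 replicates 1 and 2 (adjusted p = 0.0503 to 0.22), and its age 9 call without age 2 replicates 2 to 4 or age 9 replicates 1 to 3 (0.0584 to 0.137). Of the 6 transcripts annotated for wnt6b 3 had counts, and the one with most held 135, 2, 0 and 14 counts at ages 2, 4, 7 and 9.

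The ligands wnt7bb, wnt11 and wnt2 were low in most older testes. wnt7bb and wnt11 had entered through age 2, so that a difference in this direction was built into their selection. wnt7bb was measured at 0.96, 6.12, 11.4 and 6.19 CPM in age 2 replicates 1 to 4. In the older testes it measured 0.31, 0.77, 1.02 and 1.53 CPM at age 4, 1.501, 1.05, 0 and 1.04 CPM at age 7 and 0.68, 3.85, 0.92 and 0.98 CPM at age 9. The older libraries lay at or below 1.53 CPM apart from age 9 replicate 2, and age 2 replicate 1 lay among them. The log2 fold change was -2.73 ± 0.80 at age 4 (adjusted p = 0.0317), -2.77 ± 0.81 at age 7 (adjusted p = 0.0223) and -1.94 ± 0.77 at age 9 (adjusted p = 0.0846), the last of which passed without age 2 replicate 1 (-2.25, adjusted p = 0.014). The age 4 call ended without age 2 replicates 2, 3 or 4 or age 4 replicates 1, 2 or 3 (adjusted p = 0.0707 to 0.109), and the age 7 call without age 2 replicates 2 or 3 or age 7 replicate 4 (0.0503 to 0.0802). wnt11 held 1.12, 4.31, 6.12 and 4.51 CPM in age 2 replicates 1 to 4. Its levels were 1.42, 0.89, 0.34 and 1.67 CPM at age 4, 0.50, 1.92, 0.15 and 1.04 CPM at age 7 and 1.20, 1.28, 0.31 and 0.82 CPM at age 9. For wnt11 age 2 replicates 2 to 4 lay above every other library, and age 2 replicate 1 overlapped the older ages. Its log2 fold change was -1.87 ± 0.65 at age 4 (adjusted p = 0.0539), -2.15 ± 0.67 at age 7 (adjusted p = 0.0282) and -2.15 ± 0.67 at age 9 (adjusted p = 0.0369), and at age 4 it passed without age 2 replicate 1 (-2.10, adjusted p = 0.00999). The calls ended without any of age 2 replicates 2 to 4, at age 7 also without age 7 replicates 1, 3 or 4 (adjusted p = 0.0634 to 0.0895) and at age 9 without any age 9 library (0.0665 to 0.11). wnt2 stood at 2.88, 6.67, 5.97 and 4.35 CPM in age 2 replicates 1 to 4. The older libraries held 2.52, 1.53, 1.52 and 4.32 CPM at age 4, 3.17, 2.79, 1.85 and 1.73 CPM at age 7 and 1.54, 0.73, 1.69 and 2.45 CPM at age 9. Age 9 lay wholly below age 2 (7.93% of all genes in this direction), whereas ages 4 and 7 overlapped it. The log2 fold change of wnt2 was -1.001 ± 0.43 at age 4 (adjusted p = 0.105), -1.06 ± 0.44 at age 7 (adjusted p = 0.079) and -1.62 ± 0.45 at age 9 (adjusted p = 0.0232); the first 2 passed without age 2 replicate 1 (-1.11, adjusted p = 0.0444, and -1.15, adjusted p = 0.0382), and the last ended without age 2 replicates 2 or 3 or age 9 replicates 1, 2 or 3 (0.0597 to 0.0759).

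**Figure D4:**
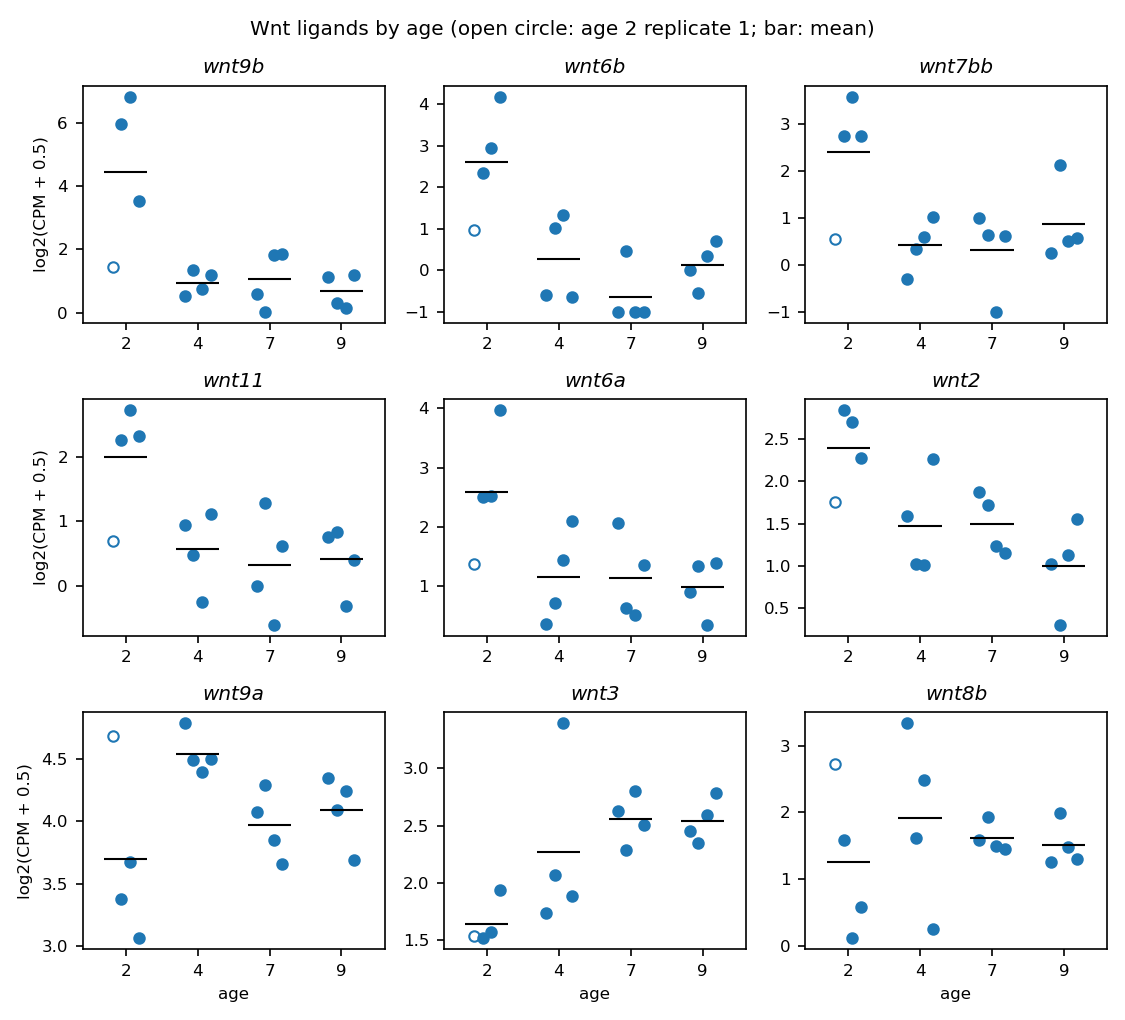
Levels of 9 Wnt ligands as log2(CPM + 0.5) against age, with a point for each library (open for age 2 replicate 1) and a bar for the mean of each age. The first 6 are high in age 2 replicates 2 to 4 and low in age 2 replicate 1 and most older libraries, whereas in wnt9a and wnt8b age 2 replicate 1 lies above the other age 2 libraries, and in wnt3 all of age 2 (2.36 to 3.34 CPM) lies below all of ages 7 and 9.

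Of the other ligands, wnt2ba, wnt2bb, wnt4 and wnt7aa passed at some or all older ages without age 2 replicate 1. wnt2bb, whose zebrafish counterpart specifies the liver, held between 2.62 and 3.34 CPM in age 2 replicates 2 to 4, 0.80 CPM in replicate 1 and between 0 and 1.80 CPM in the older libraries. With all libraries its log2 fold change was -2.04 at age 4 (adjusted p = 0.075), -1.91 at age 7 (0.0792) and -1.60 at age 9 (0.148). Without age 2 replicate 1 it was -2.27 at age 4 (adjusted p = 0.0248), -2.11 at age 7 (0.0334) and -1.83 at age 9 (0.0611). wnt7aa, tested only in that fit, had a log2 fold change of -2.09 at age 4 (adjusted p = 0.0291), -2.93 at age 7 (0.00663) and -2.11 at age 9 (0.0317). Both wnt2bb and wnt7aa had entered through age 2, where they are high, so that a difference was built into their selection. That fit also leaves out the library where each had its lowest age 2 level, as it does for wnt4 and wnt2ba. wnt4 held 2.08, 15.3, 14.7 and 10.4 CPM at age 2 and between 1.34 and 13.3 CPM in the older libraries. It passed without age 2 replicate 1 at age 7 (-1.54, adjusted p = 0.0335) and not at ages 4 (0.149) and 9 (0.3), and with all libraries its adjusted p lay between 0.136 and 0.633. wnt2ba passed without age 2 replicate 1 at age 7 (-1.39, adjusted p = 0.0452) and not at ages 4 (0.0531) and 9 (0.107). With all libraries its adjusted p was 0.15, 0.116 and 0.26 at ages 4, 7 and 9.

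The ligands wnt9a and wnt3 ran the other way. wnt9a, the paralog of wnt9b, held 25.2, 9.87, 12.2 and 7.86 CPM at age 2, 27.1, 21.9, 20.5 and 22.1 CPM at age 4, 16.4, 19.04, 13.9 and 12.1 CPM at age 7 and 19.8, 16.5, 18.4 and 12.4 CPM at age 9 (replicates 1 to 4 of each). It was higher in age 2 replicate 1 than in the other 3 age 2 libraries, and the ages overlapped. With all libraries its log2 fold change was 0.73 ± 0.31 at age 4 (adjusted p = 0.101), 0.16 ± 0.31 at age 7 (0.732) and 0.28 ± 0.31 at age 9 (0.536). Without age 2 replicate 1 it was 1.27 (adjusted p = 0.00076), 0.71 (0.0268) and 0.80 (0.0165). wnt3, a ligand of the beta-catenin branch, held 2.40, 2.36, 2.48 and 3.34 CPM at age 2, 2.83, 3.70, 9.99 and 3.204 CPM at age 4, 5.67, 4.37, 6.48 and 5.18 CPM at age 7 and 4.96, 4.58, 5.52 and 6.37 CPM at age 9 (replicates 1 to 4 of each). All 4 libraries of age 7 and of age 9 lay above all 4 of age 2, a separation in the higher direction found in 6.73% and 7.12% of all genes. Its log2 fold change was 1.03 ± 0.38 at age 7 (adjusted p = 0.0529) and 1.01 ± 0.38 at age 9 (0.0706), short of the threshold, and without age 2 replicate 1 it was 1.07 at age 7 (adjusted p = 0.0406) and 1.02 at age 9 (0.055). wnt8b held 6.09, 2.50, 0.58 and 1.003 CPM in age 2 replicates 1 to 4 and between 0.70 and 9.59 CPM in the older libraries. With all libraries its log2 fold change was 0.81, 0.03 and -0.08 at ages 4, 7 and 9 (adjusted p = 0.391, 0.978 and 0.946). It passed at age 4 without age 2 replicate 1, its highest age 2 library (1.76, adjusted p = 0.0425). wnt16, wnt5b and wnt4b passed in none of these fits. The level of wnt16 was between 16.03 and 20.7 CPM at age 2 and between 8.94 and 30.8 CPM in the older libraries, with log2 fold changes between -0.07 and 0.22. wnt5b, a ligand of the branch without beta-catenin, was between 7.85 and 14.9 CPM at age 2 and between 5.98 and 29.7 CPM later, and wnt4b between 8.19 and 21.6 CPM at age 2 and between 1.54 and 13.9 CPM later.

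On the reference assembly Billie_1.0, wnt9a lies next to wnt3a, wnt6b next to wnt10a and wnt1 next to wnt10b, with 0 coding genes between them in each case. The neighbours wnt9a and wnt3a differed in pattern. wnt3a held 4.31, 4.08 and 4.68 CPM in age 2 replicates 2 to 4, 0.32 CPM in replicate 1 and between 0.15 and 0.89 CPM in the older libraries, whereas wnt9a held 9.87, 12.2 and 7.86 CPM in age 2 replicates 2 to 4, 25.2 CPM in replicate 1 and between 12.1 and 27.1 CPM in the older libraries. wnt10a, the neighbour of wnt6b, held 0.32, 0.56, 2.33 and 1.17 CPM at age 2 and at most 0.55 CPM in any older library.

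Of the 11 receptors 1 was lower at age 4, 3 at age 7 and 1 at age 9, and 0 were higher (DESeq2 called 0, 0 and 1 higher; 4, 5 and 4 receptors had an unadjusted p under 0.05). The share of receptors lower was 9.09%, 27.3% and 9.09%, beside 12%, 15.9% and 11.5% of all tested genes. At ages 4 and 9 receptors were thus called lower no more often than genes in general. Of all tested genes 6.66%, 11.5% and 6.82% were higher. fzd3a, a Frizzled known in the mouse for guiding axons and for planar polarity, was lower at ages 7 and 9. fzd3a stood at 20.5, 42.1, 30.3 and 29.6 CPM in age 2 replicates 1 to 4. Later ages had 10.1, 24.6, 4.24 and 14.9 CPM at age 4, 5.50, 9.61, 7.40 and 11.6 CPM at age 7 and 8.89, 7.51, 6.29 and 5.55 CPM at age 9. All age 2 libraries, replicate 1 included, lay above all of ages 7 and 9 (8.37% and 7.93% of all genes in this direction), while age 4 replicate 2 lay within the age 2 range. Its log2 fold change was -1.18 ± 0.41 at age 4 (adjusted p = 0.0525), -1.84 ± 0.42 at age 7 (adjusted p = 0.00873) and -2.12 ± 0.42 at age 9 (adjusted p = 0.00623), and the last 2 passed whichever library was left out. At age 4 it passed without age 2 replicate 1 (-1.26, adjusted p = 0.0205).

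The receptors fzd7a, fzd9b and fzd10 passed at 1 age each. fzd7a held 4.97, 16.1, 15.6 and 22.9 CPM in age 2 replicates 1 to 4. In the older testes it measured 4.09, 4.85, 4.07 and 10.7 CPM at age 4, 6.84, 4.19, 7.25 and 2.42 CPM at age 7 and 5.98, 8.43, 7.51 and 7.999 CPM at age 9. Age 2 replicates 2 to 4 were the 3 highest libraries, and age 2 replicate 1 lay within the older range. The log2 fold change of fzd7a was -1.32 ± 0.45 at age 4 (adjusted p = 0.0511), -1.52 ± 0.46 at age 7 (adjusted p = 0.0244) and -0.99 ± 0.45 at age 9 (adjusted p = 0.125). Its age 7 call ended without age 2 replicates 2, 3 or 4 or age 7 replicates 2 or 4 (adjusted p = 0.0593 to 0.088), and without age 2 replicate 1 all 3 ages passed (-1.54, -1.73 and -1.23, adjusted p = 0.00412, 0.00183 and 0.0166). fzd9b was at 0.96, 4.17, 4.81 and 5.52 CPM in age 2 replicates 1 to 4. Its levels were 0.94, 2.04, 1.02 and 3.06 CPM at age 4, 1.501, 0.17, 0.77 and 1.04 CPM at age 7 and 1.37, 1.83, 0.92 and 4.57 CPM at age 9. Age 9 replicate 4 reached the age 2 range, and age 2 replicate 1 lay below several older libraries. Against age 2 the log2 fold change of fzd9b was -1.11 ± 0.62 at age 4 (adjusted p = 0.202), -2.12 ± 0.67 at age 7 (adjusted p = 0.0293) and -0.83 ± 0.62 at age 9 (adjusted p = 0.352), and the age 7 call ended without age 2 replicates 2, 3 or 4 or age 7 replicates 2, 3 or 4 (0.0593 to 0.0836). fzd10 held 15.71, 40.3, 53.8 and 66.2 CPM in age 2 replicates 1 to 4. The older libraries held 11.3, 12.1, 17.4 and 18.9 CPM at age 4, 19.02, 12.6, 22.1 and 11.9 CPM at age 7 and 9.57, 9.71, 15.6 and 53.7 CPM at age 9. Age 9 replicate 4 again lay with age 2 replicates 2 to 4. Set against age 2, the log2 change of fzd10 was -1.56 ± 0.52 at age 4 (adjusted p = 0.0485), -1.42 ± 0.52 at age 7 (adjusted p = 0.0521) and -0.99 ± 0.51 at age 9 (adjusted p = 0.178). Its age 4 call ended without any 1 of age 2 replicates 2 to 4, the age 4 and age 7 libraries and age 9 replicate 3 (adjusted p = 0.0538 to 0.147), and at age 7 it passed without age 2 replicate 1 (-1.62, adjusted p = 0.0122).

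In edgeR's quasi-likelihood test with all libraries fzd8a was called higher at no age. It was the 1 receptor called higher without age 2 replicate 1, the library with its highest age 2 level. Its level was 47.1, 13.1, 26.5 and 20.4 CPM at age 2, 41.8, 73.1, 41.2 and 28.3 CPM at age 4, 43.9, 43.5, 56.1 and 27.98 CPM at age 7 and 61.4, 33.9, 88 and 41.8 CPM at age 9 (replicates 1 to 4 of each). Age 2 replicates 2 to 4 were the 3 lowest libraries and age 2 replicate 1 lay among the older ones. With all libraries the log2 fold change was 0.79 ± 0.40 at age 4 (adjusted p = 0.157), 0.68 ± 0.40 at age 7 (0.202) and 1.07 ± 0.40 at age 9 (0.0678), and without age 2 replicate 1 it was 1.28 (0.0114), 1.19 (0.0162) and 1.54 (0.00419). ror1, a receptor of the branch without beta-catenin, held 1.44, 6.25, 8.01 and 12.4 CPM at age 2 and between 0.17 and 6.94 CPM later. It passed without age 2 replicate 1 at ages 4 (-2.16, adjusted p = 0.0247) and 7 (-1.86, 0.0454). With all libraries it did not (-1.895, adjusted p = 0.0946, and -1.593, 0.133). fzd2 passed without age 2 replicate 1 at age 4 (-1.27, adjusted p = 0.0285) and not with all libraries (-1.001, 0.175). fzd4, which in mammals also binds norrin in retinal vessels, was between 43.3 and 79.8 CPM at age 2 and between 55.4 and 124.7 CPM later, with log2 fold changes of 0.24, 0.57 and 0.62 and an adjusted p of at least 0.0909 with all libraries. fzd5, fzd6 and fzd9a passed in neither fit. The range of fzd5 was 10.8 to 18.5 CPM at age 2 and 9.84 to 25.5 CPM later, that of fzd6 2.88 to 5.68 CPM and 1.55 to 5.40 CPM, and that of fzd9a 1.76 to 21.1 CPM and 1.21 to 19.3 CPM. In age 7 replicate 3 several receptors were the highest of their age, with fzd9a at 19.3 CPM, ror1 at 6.94 CPM, fzd2 at 31.9 CPM and fzd4 at 123.8 CPM.

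**Figure D5:**
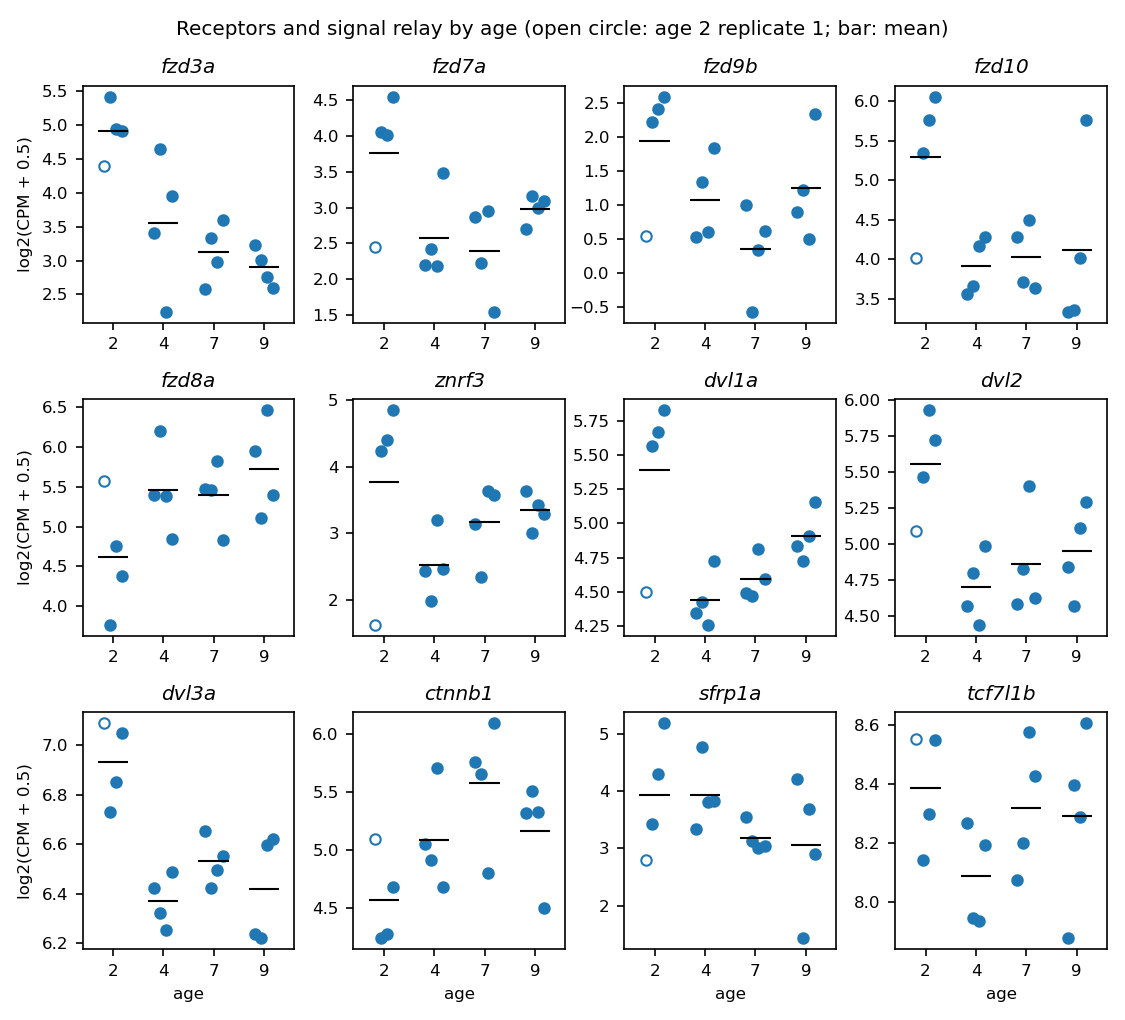
Levels of 5 Frizzled receptors, znrf3, the 3 Dishevelled genes, ctnnb1, sfrp1a and tcf7l1b as log2(CPM + 0.5) against age, with a point for each library (open for age 2 replicate 1) and a bar for the mean of each age. In dvl3a all 4 age 2 points (105.6 to 135.6 CPM) lie above all others, and in fzd8a age 2 replicates 2 to 4 (13.1, 26.5 and 20.4 CPM) lie below all others.

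In the R-spondin module, znrf3, the ubiquitin ligase that removes Frizzled from the membrane and is itself a target of beta-catenin in mammals, was lower at age 4. znrf3 held 2.56, 18.4, 20.6 and 28.4 CPM in age 2 replicates 1 to 4. Later ages had 4.88, 3.44, 8.64 and 5.01 CPM at age 4, 8.34, 4.54, 11.9 and 11.4 CPM at age 7 and 11.97, 7.51, 10.3 and 9.30 CPM at age 9. Age 2 replicate 1 was the lowest of all 16 libraries, and replicates 2 to 4 were the highest. Its log2 fold change was -1.67 ± 0.52 at age 4 (adjusted p = 0.0377), -0.95 ± 0.51 at age 7 (adjusted p = 0.166) and -0.84 ± 0.51 at age 9 (adjusted p = 0.244). The call at age 4 ended without any 1 library of ages 2 and 4 other than age 2 replicate 1 (adjusted p = 0.0631 to 0.129), and without that library all 3 ages passed (-1.97, -1.23 and -1.15, adjusted p = 0.000347, 0.00757 and 0.0129). lgr4, a receptor of R-spondins, held 76.6, 85.2, 118 and 161.2 CPM at age 2 and between 66.2 and 144 CPM later. Its log2 fold change was -0.60 ± 0.26 at age 4 (adjusted p = 0.107), and it passed there without age 2 replicate 1 (-0.67, adjusted p = 0.0401). The R-spondin rspo2 reached 10 counts in 1 library, with 0.48, 0.97, 1.89 and 1.505 CPM at age 2 and at most 1.28 CPM later.

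None of the 4 secreted antagonists passed against age 2 in edgeR's quasi-likelihood test with all libraries (0, 0 and 3 had an unadjusted p under 0.05 at ages 4, 7 and 9, and DESeq2 called 0). Of all tested genes 18.6%, 27.3% and 18.4% were called at these ages. sfrp1a stood at 6.41, 10.3, 19.2 and 35.8 CPM in age 2 replicates 1 to 4. In the older testes it measured 9.59, 26.7, 13.6 and 13.7 CPM at age 4, 11.2, 8.21, 7.56 and 7.77 CPM at age 7 and 17.9, 2.20, 12.4 and 7.02 CPM at age 9. The ages overlapped widely, and the log2 fold change of sfrp1a was -0.17 ± 0.55 at age 4 (adjusted p = 0.842), -1.04 ± 0.56 at age 7 (adjusted p = 0.166) and -0.85 ± 0.55 at age 9 (adjusted p = 0.28). The sign at age 4 turned without age 2 replicate 4 (0.45) or age 4 replicate 1 (0.02). dkk3a, a divergent member of the Dkk family, was between 3.12 and 4.45 CPM at age 9 and between 5.29 and 8.31 CPM at age 2, without overlap. Its log2 fold change at age 9 was -0.85 ± 0.31 (adjusted p = 0.0672), and it passed without age 2 replicate 1 (-0.89, adjusted p = 0.0369). notum1b also lay lower at age 9 (0.85 to 2.15 CPM) than at age 2 (3.01 to 6.41 CPM) without overlap. Its log2 fold change was -1.36 ± 0.56 (adjusted p = 0.0962), and -1.003 (0.172) without age 2 replicate 1, its highest library. At age 9, 7.93% of all genes lay lower without overlap. sfrp5 held 0.80, 0.42, 1.02 and 2.01 CPM at age 2 and between 0.85 and 4.88 CPM later, with log2 fold changes of 1.24, 0.83 and 1.42 (adjusted p = 0.167, 0.344 and 0.124).

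The Dishevelled genes, which pass the signal from the receptor to the destruction complex, were each lower at 2 of the 3 older ages. Of all tested genes 12%, 15.9% and 11.5% were lower at ages 4, 7 and 9. dvl3a held 135.6, 105.6, 115.1 and 131.9 CPM in age 2 replicates 1 to 4. Its levels were 85.2, 79.5, 75.9 and 89.2 CPM at age 4, 100.3, 85.4, 89.7 and 93.4 CPM at age 7 and 75.1, 74.05, 96.3 and 97.95 CPM at age 9. All 4 age 2 libraries lay above all 12 older ones, and age 2 replicate 1 was the highest. The fitted log2 change was -0.57 ± 0.15 at age 4 (adjusted p = 0.0249), -0.40 ± 0.15 at age 7 (adjusted p = 0.0599) and -0.51 ± 0.15 at age 9 (adjusted p = 0.0334). The age 4 call ended without age 2 replicates 3 or 4 or age 4 replicates 1, 2 or 3 (adjusted p = 0.0636 to 0.0949). That at age 9 ended without any of age 2 replicates 2 to 4, age 4 replicates 1 and 2, age 7 replicates 1, 2 and 4 and age 9 replicates 1 to 3 (0.0501 to 0.116). dvl1a stood at 22.1, 46.98, 50.3 and 56.3 CPM in age 2 replicates 1 to 4. The older libraries held 19.8, 21.1, 18.6 and 25.9 CPM at age 4, 22.02, 21.7, 27.6 and 23.7 CPM at age 7 and 28.04, 26.03, 29.6 and 35.3 CPM at age 9. Here age 2 replicate 1 lay with the older libraries and replicates 2 to 4 above them, and the ages overlapped. On the log2 scale the change of dvl1a was -1.04 ± 0.25 at age 4 (adjusted p = 0.0178), -0.89 ± 0.25 at age 7 (adjusted p = 0.018) and -0.56 ± 0.25 at age 9 (adjusted p = 0.114), and without age 2 replicate 1 it passed at age 9 too (-0.73, adjusted p = 0.0043). The age 4 call ended without age 2 replicates 2, 3 or 4 or age 4 replicates 1 or 3 (adjusted p = 0.0505 to 0.0635) and the age 7 call without the same age 2 libraries or age 7 replicates 1, 2 or 4 (0.0509 to 0.0706). dvl2 was at 33.7, 43.6, 60.6 and 52.5 CPM in age 2 replicates 1 to 4. Later ages had 23.3, 27.4, 21.2 and 31.2 CPM at age 4, 23.5, 27.9, 41.9 and 24.2 CPM at age 7 and 28.2, 23.3, 34.04 and 38.7 CPM at age 9. Age 4 lay wholly below age 2 (4.47% of all genes in this direction), and ages 7 and 9 overlapped it through age 2 replicate 1. In the fit its log2 change of dvl2 was -0.88 ± 0.25 at age 4 (adjusted p = 0.0282), -0.69 ± 0.25 at age 7 (adjusted p = 0.0477) and -0.62 ± 0.25 at age 9 (adjusted p = 0.089), the last of which passed without age 2 replicate 1 (-0.70, adjusted p = 0.0266). Its age 4 call ended without age 2 replicates 2, 3 or 4 or age 4 replicates 1, 2 or 3 (adjusted p = 0.0521 to 0.0975), and its age 7 call without any library other than age 2 replicate 1 and age 7 replicate 3 (0.0539 to 0.152).

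ctnnb1, which encodes beta-catenin, was the 1 Wnt gene called higher, at age 7. ctnnb1 held 33.7, 18.4, 18.8 and 25.1 CPM in age 2 replicates 1 to 4. In the older testes it measured 32.7, 29.6, 51.7 and 25.1 CPM at age 4, 53.5, 49.96, 27.4 and 67.9 CPM at age 7 and 39.5, 45.1, 39.7 and 22.04 CPM at age 9. The age 7 values were high in replicates 1, 2 and 4, while replicate 3 lay below age 2 replicate 1, so that the ages overlapped. The change on the log2 scale was 0.54 ± 0.32 at age 4 (adjusted p = 0.222), 1.05 ± 0.32 at age 7 (adjusted p = 0.0247) and 0.61 ± 0.32 at age 9 (adjusted p = 0.176). The call ended without age 2 replicates 2, 3 or 4 or age 7 replicates 1 or 4 (adjusted p = 0.0537 to 0.0791), and without age 2 replicate 1 the gene passed at age 9 too (0.87, adjusted p = 0.0412). Of the 4 annotated transcripts of ctnnb1, 2 held counts. The more abundant of them had 372, 721, 978 and 684 counts at ages 2, 4, 7 and 9, and the other 249, 204, 200 and 187 counts. axin1, a scaffold of the destruction complex, held between 8.16 and 14.0 CPM at age 2 and between 7.56 and 15.4 CPM later, with log2 fold changes of 0.08, -0.28 and -0.20 (adjusted p of at least 0.446). axin2, a feedback target of beta-catenin in many vertebrate tissues, fell short of the count minimum, with 0, 3, 6 and 8 counts at age 2 and at most 3 in any older library. It has 2 annotated transcripts, of which 1 held counts, so that its low counts are not read as a low level.

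The only nuclear factor above the minimum was tcf7l1b, whose family member Tcf7l1 mostly represses targets until beta-catenin binds it. tcf7l1b stood at 375.1, 282.2, 314.4 and 374.3 CPM in age 2 replicates 1 to 4. Its levels were 308, 246, 244.6 and 292.5 CPM at age 4, 269.3, 293.3, 381.2 and 343.4 CPM at age 7 and 234.6, 336.5, 312.4 and 389 CPM at age 9. The ages overlapped throughout, and the log2 fold change was -0.30 ± 0.19 at age 4 (adjusted p = 0.242), -0.07 ± 0.19 at age 7 (adjusted p = 0.816) and -0.08 ± 0.19 at age 9 (adjusted p = 0.785). At ages 7 and 9 its sign turned without age 2 replicate 1 (0.08 and 0.03).

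Among the older ages no Wnt gene passed, at age 7 against age 4, age 9 against age 4 or age 9 against age 7. In edgeR's quasi-likelihood test 0, 2 and 1 Wnt genes had an unadjusted p under 0.05, DESeq2 called 0 in each, and of all tested genes 0.0125%, 0.0% and 0.0% were called. At age 9 against age 4 fzd3a had a log2 fold change of -0.94 ± 0.41 (adjusted p = 0.504) and lgr4 of 0.60 ± 0.26 (0.499), and at age 9 against age 7 dkk3a had -0.67 ± 0.31 (0.7). At age 9 against age 4, dvl1a, fzd2 and fzd4 lay higher and wnt9a lower without overlap between the ages, which 5.29% and 3.25% of all genes did in these directions. The levels at age 9 against those at age 4 were 26.0 to 35.3 CPM against 18.6 to 25.9 CPM for dvl1a, 19.3 to 33.9 CPM against 8.02 to 18.3 CPM for fzd2, 77.9 to 124.7 CPM against 68.2 to 73.9 CPM for fzd4 and 12.4 to 19.8 CPM against 20.5 to 27.1 CPM for wnt9a. wnt9a was also lower at age 7 (12.1 to 19.04 CPM) than at age 4 without overlap (1.71% of all genes in this direction; adjusted p = 0.994). At age 9 against age 7, 0 Wnt genes were without overlap in either direction, beside 3.59% of all genes higher and 2.61% lower.

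The wider pathway was read from 5 gene lists. Of 16 tested genes of Wnt secretion and the destruction complex 0 were higher and 4, 2 and 2 lower at ages 4, 7 and 9, with median log2 fold changes of -0.28, -0.14 and -0.20. Over all tested genes 6.66%, 11.5% and 6.82% were higher and 12%, 15.9% and 11.5% lower, so that 2 of 16 at ages 7 and 9 lie near the share of all genes. wls, the carrier that brings Wnt ligands to the cell surface, held 30.03, 47.1, 29.3 and 51.1 CPM at age 4 and 39.8, 114.5, 146.1 and 169.4 CPM at age 2 (-1.58 ± 0.43, adjusted p = 0.0254). apc2, a relative of the Apc scaffold, was lower at all 3 ages (-1.28 ± 0.30, -1.28 ± 0.31 and -1.66 ± 0.31), with 32.3, 22.0, 20.7 and 31.7 CPM at age 9 against 41.7, 109.1, 109.3 and 77.2 CPM at age 2. At age 4 apc2 reached 46.2 CPM and overlapped age 2 through its replicate 1. gsk3bb, a kinase of the destruction complex, was lower at ages 7 (-0.88 ± 0.20, adjusted p = 0.00851) and 9 (-0.86 ± 0.20, adjusted p = 0.0106) without overlap (8.37% and 7.93% of all genes in this direction).

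Of 20 tested extracellular and membrane modulators outside the gene families above, 0, 1 and 0 were higher and 6, 3 and 8 lower, with medians of -0.76, -0.85 and -0.80. The 3 of 20 at age 7 lie near the share of all genes. kremen1, a receptor for Dkk proteins, held 4.09, 5.61, 2.71 and 6.69 CPM at age 4 and 4.33, 46.7, 52.5 and 68.2 CPM at age 2, with log2 fold changes of -3.16 ± 0.59 at age 4, -3.25 ± 0.60 at age 7 and -2.72 ± 0.58 at age 9 (adjusted p = 0.0126, 0.00539 and 0.00814). Age 2 replicate 1 lay with the older libraries. shisa3, an inhibitor of Frizzled maturation, was lower at age 4 (-1.56 ± 0.44, adjusted p = 0.0287), the Dishevelled-binding inhibitor nkd2b at age 7 (-1.38 ± 0.38, adjusted p = 0.0166) and the secreted antagonist sostdc1a at age 9 (-2.41 ± 0.55, adjusted p = 0.011), each without overlap. No overlap in this direction was found in 4.47%, 8.37% and 7.93% of all genes at these ages. sostdc1a held 0.34, 0.73, 0.15 and 0.65 CPM at age 9 and 1.44, 2.64, 3.93 and 2.17 CPM at age 2, so that the size of its change is poorly determined. It may have passed the count filter through age 2, where it is high, so that a difference may be built in. In nkd2b age 7 held 14.0, 12.6, 13.3 and 13.1 CPM, against 23.7, 37.5, 44.3 and 32.9 CPM at age 2.

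Of 8 tested nuclear cofactors of beta-catenin 0 were higher and 2, 1 and 1 lower, the last 2 counts near the share of all genes. The corepressor tle2b was lower at all 3 ages (-1.34 ± 0.28, -0.92 ± 0.27 and -0.96 ± 0.27, adjusted p = 0.0147, 0.0232 and 0.0263), with 70.8, 65.6, 77.8 and 117.6 CPM at age 4 against 126.5, 214.8, 266.1 and 233.7 CPM at age 2. sox17 was lower at age 4 (-1.91 ± 0.63, adjusted p = 0.0467). It overlapped there, with 1.02 to 2.36 CPM against 1.76, 4.03, 8.45 and 15.2 CPM at age 2. Of 17 tested planar polarity and other genes of the branches without beta-catenin 0, 1 and 0 were higher and 3, 3 and 2 lower, the counts at ages 7 and 9 near that share. The polarity cadherin celsr3 was lower at all 3 ages (-1.77 ± 0.33, -1.52 ± 0.33 and -1.18 ± 0.33), with 11.2, 12.9, 16.8 and 15.04 CPM at age 4 against 16.8, 47.4, 66.9 and 59.9 CPM at age 2, and so was prickle2b (-1.43 ± 0.43, -1.83 ± 0.44 and -1.37 ± 0.43). Through age 2 replicate 1, celsr3 overlapped at ages 7 and 9, prickle2b at ages 4 and 9 and tle2b at age 7. Of 18 tested textbook targets of beta-catenin 1, 0 and 0 were higher and 4, 4 and 2 lower, with medians of -0.63, -0.70 and -0.67. The 2 of 18 at age 9 lie near the share of all genes. sox9a, which is also a Sertoli cell gene, was lower at ages 4 (-2.46 ± 0.51, adjusted p = 0.0149) and 7 (-2.46 ± 0.52, adjusted p = 0.00716), the cyclin ccnd2b at ages 7 (-1.12 ± 0.26, adjusted p = 0.00942) and 9 (-0.95 ± 0.26, adjusted p = 0.0219), and tbxtb at ages 4 (-1.42 ± 0.40, adjusted p = 0.029) and 9 (-1.47 ± 0.41, adjusted p = 0.0232). At these ages sox9a and tbxtb overlapped age 2 through its replicate 1. sox9a held 2.40, 20.7, 27.0 and 13.2 CPM in age 2 replicates 1 to 4, and 2.42 to 3.62 CPM at age 4. tbxtb held 1.76, 5.70, 5.83 and 4.01 CPM at age 2, and 1.42 to 1.81 CPM at age 4. ccnd2b overlapped at age 7 through the same library and not at age 9 (7.93% of all genes in this direction). Without age 2 replicate 1, with 17, 20, 8, 17 and 20 genes tested in the 5 lists, the numbers lower at ages 4, 7 and 9 were 5, 3 and 3 for secretion and the destruction complex, 9, 7 and 9 for the modulators, 2, 2 and 1 for the cofactors, 6, 5 and 5 for the polarity genes and 8, 8 and 7 for the targets. The numbers higher were 2, 3 and 2, 2, 2 and 2, 0 at each age, 3, 2 and 2, and 1, 1 and 0 for these lists in the same order. Of all genes in that fit 23.3%, 24.2% and 21.7% were higher and 22.3%, 23.6% and 20.6% lower.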

How the data were processed

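Total RNA of 16 testes was sequenced, and the deposited tables hold the raw counts of fragments per transcript that the authors made, 1 table a library. The submitters' processing notes name HTSeq 0.11.1, STAR 2.7.5, edgeR 4.4.2, Trimmomatic 0.39, FastQC 0.11.9 and MultiQC 1.10.1. How they were set, the build and strand use are not given in the sources used. Counting by transcript leaves fragments shared by transcripts of 1 gene ambiguous, and between 22.8% and 29.4% of fragments were. The share was 22.8% to 24.8% in age 2 replicates 2 to 4, 27.9% in age 2 replicate 1 and 25.7% to 29.4% in the older libraries. Its effect on genes with several transcripts was not tested. The 5 summary lines (ambiguous and other unassigned fragments) were left out of library sizes, which leaves between 23.8% and 34.8% of fragments.

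Counts were summed per symbol (26356 genes). Genes were kept by edgeR's filterByExpr (minimum count 10, minimum total 15), which left 15979, and scaled by TMM (factors 0.773 to 1.13). The quasi-likelihood test of edgeR 4.0.16 (R 4.3.3; robust; all 16 libraries; 12 residual degrees of freedom; two-sided; Benjamini-Hochberg over all genes, threshold 0.05) was the test used, and every adjusted p is from it unless DESeq2 1.42.0 is named. The standard error is the size of the log2 fold change over the square root of F. Biological variation, as edgeR's common coefficient, was 0.417. The test was tried on simulated data first. Tables and plots were made in Python 3.11.15 with numpy 2.4.6, pandas 2.3.3 and matplotlib 3.10.9.

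Values in every library are given for the 15 Wnt genes called against age 2 and, in a role with none, the gene of highest level. In the 5 pathway lists the 2 called genes of smallest p per comparison are named; a list gene matched its symbol or that symbol with a paralog letter. The members and lists were chosen with earlier results of these data known. Names of all 61 genes matched RefSeq (assembly Billie_1.0), used for names and neighbours only. Sequences and gene lengths were not used here. Alternatives were DESeq2, its size factors in edgeR, no filter, fits on 2 ages alone, the replicate number as a block and each library left out.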

Additional observations from a re-analysis of the deposited data

Results flagged for a closer look

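In 4 of 68 sets of 4 libraries examined (each named Wnt gene at each age), 1 library stood apart from the other 3 by a gap above Dixon's 95% critical value for 4 samples, and chance alone sets apart about 1 in 20. wnt6b held 0.87 CPM in age 7 replicate 2 and was at 0 in the other 3 libraries of that age. wnt7bb held 3.85 CPM in age 9 replicate 2, against 0.68 to 0.98 CPM in the others of age 9. fzd7a held 10.7 CPM in age 4 replicate 4, against 4.07 to 4.85 CPM in the others of age 4. fzd10 held 53.7 CPM in age 9 replicate 4, against 9.57 to 15.6 CPM in the others of age 9.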

How the results depend on the processing

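With each library left out in turn, the number of Wnt genes called lay between 0 and 21 at age 4, 3 and 22 at age 7 and 2 and 17 at age 9 against age 2, and stayed at 0 among the older ages. Over all genes it lay between 1 and 7581 at age 4 (2979 with all libraries; 1 without age 4 replicate 3), 1945 and 7941 at age 7 (4368) and 1157 and 7028 at age 9 (2934), and between 0 and 3 at age 7 against age 4, 0 and 8 at age 9 against age 4 and 0 and 1 at age 9 against age 7 (2, 0 and 0 with all libraries). In fits on 2 ages alone, with fewer samples, 0, 2 and 2 Wnt genes were called at ages 4, 7 and 9 and 0, 795 and 987 of all genes, with 3 at age 7 against age 4, 8 at age 9 against age 4 and 6 at age 9 against age 7. Without the filter 5 Wnt genes were called at age 4, and 0 of all genes at age 7 against age 4. DESeq2 called 13, 107 and 62 of all genes among the older ages (age 7 against 4, 9 against 4, 9 against 7). The cause of these changes was not tested. No named gene that was called reversed its direction with DESeq2, its size factors in edgeR, the replicate block or any library left out. Directions of named genes were not compared without the filter or in fits on 2 ages alone. Of the values that were not called, sfrp1a at age 4 (-0.17) lay above 0 without age 2 replicate 4 (0.45) or age 4 replicate 1 (0.02), and tcf7l1b above 0 at ages 7 (-0.07) and 9 (-0.08) without any of 4 and 2 single libraries (0.02 to 0.08). DESeq2's size factors in edgeR ended 2 calls, dvl2 at age 7 (adjusted p = 0.0566) and fzd10 at age 4 (0.0516).

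With the replicate block, 11, 10 and 7 Wnt genes were called at ages 4, 7 and 9, and 0 of all genes at age 7 against age 4. The labels do not say whether equal replicate numbers mark a pairing. Correlations of same-numbered libraries ran from -0.22 to 0.41 (median 0.044), and those of differently numbered libraries from -0.361 to 0.376 (median -0.008). Of 16 libraries 7 were closest to their own number, and a pairing was not tested further.

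The labels call the samples biological replicates. With 4 fish an age, 1 atypical age 2 library and between 5136717 and 8081160 assigned fragments a library, genes with a few counts, such as wnt6b and wnt2bb, are measured with little precision.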
